A study of Mus musculus with 18 samples.

Results

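The nuclear genes of mitochondrial complex I were followed in left ventricle of mice with and without cardiac overexpression of Gαq, on 2 diets. The members were all protein-coding genes whose symbol begins with Nduf and whose mean raw count over the 18 libraries was at least 10. Of 55450 genes in the count table, 51 carried such a symbol, 46 of them were protein-coding, and all 46 passed the count minimum and the later filter on low counts. They comprised 36 subunits of the complex, 8 assembly factors (Ndufaf1 to Ndufaf8), and 2 genes that keep the name but encode no complex I subunit. These are Ndufa4, now known as a subunit of cytochrome c oxidase (complex IV), and its paralogue Ndufa4l2. The lowest mean count among members was 46.7 (Ndufs5), and 45 members had a mean of at least 100.

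The mice were of the FVB/N strain and male, and were either cardiac-specific overexpressors of Gαq, the G protein alpha subunit encoded by Gnaq, or wild-type (WT) littermates. Both genotypes ate control diet (CD) or chow with the SGLT2 inhibitor ertugliflozin (ERTU) at 0.5 mg per g, from 4 weeks of age for 16 weeks, so that all hearts were taken at 20 weeks. The libraries numbered 4 for WT CD, 5 for Gαq CD, 5 for WT ERTU and 4 for Gαq ERTU, each from the left ventricle of 1 heart. The promoter that drives the transgene was not given in the sources used here. Libraries are called by the numbers that the tables carry, which are 1, 2, 4 and 5 for WT CD, 6 to 10 for Gαq CD, 11 to 15 for WT ERTU, and 16, 17, 18 and 20 for Gαq ERTU. Values listed per library follow these numbers within each group.

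Complex I takes electrons from NADH, passes them through a flavin and a chain of iron-sulfur clusters to ubiquinone, and couples this to proton pumping across the inner mitochondrial membrane. Its peripheral arm in the matrix holds the N module, which oxidises NADH, and the Q module, which reduces ubiquinone. Its membrane arm has a proximal part next to the Q module and a distal part. The core subunits carry out catalysis and are conserved from bacteria. Accessory subunits surround them, and assembly factors help to build modules and join them but are absent from the finished enzyme. The subunits that form the proton channels are among those encoded in mitochondrial DNA, and the annotation lists 7 mitochondrially encoded subunits of complex I. None of the 37 mitochondrially encoded genes was in the count table, so only the nuclear side of the complex was measured. The heart draws most of its ATP from the respiratory chain that this enzyme feeds.

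Promoter sequence was read for 40 of the 46 members from a RefSeq table of build GRCm38.p6, which gives 250 bases before to 50 bases after each transcription start. Among those not matched were Ndufa2, Ndufs1, Ndufb9, Ndufaf6 and Ndufa4l2. Both strands were searched for 4 words that stand for known transcription factor motifs, AAGATGGCG for YY1, GCGCATGCG for NRF1, CCGGAAG for ETS factors and TCAAGGTCA for ERR receptors. The YY1 word was found in 5 of 34 promoters of 32 subunits (14.7%), in 1 of 7 promoters of assembly factors (14.3%), and in 461 of all 32851 promoters (1.40%). The matches are shown because the same word stood at the beginning of genes from different parts of the complex, and they were chosen after the result of the search was seen. In the following stretches the capitals mark the YY1 word.
Ndufs7, chr10:80249464-80249490, plus strand: gccgaggccAAGATGGCGgcgctggcg
Ndufa9, chr6:126849098-126849124, minus strand: ttgtgggagAAGATGGCGgccgccgtc
Ndufs4, chr13:114388045-114388068, minus strand: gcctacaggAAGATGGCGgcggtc
Ndufs6, chr13:73328433-73328458, minus strand: gtcaccggcAAGATGGCGgcggtgct
Ndufc1, chr3:51408916-51408942, minus strand: ctgcggaacAAGATGGCGccgtccgta
Ndufaf8, chr11:120098935-120098961, plus strand: gcagggcccAAGATGGCGgcgccctcg
In the 5 subunit genes the word overlapped the annotated start codon, its ATG included, and in Ndufaf8 it did not. All 6 matches lay inside the first 50 bases of the transcript and therefore in an exon. The share over all promoters was not limited to genes whose start codon lies within those 50 bases. The shares of the members and of all promoters are therefore from unlike sets. Of these genes, Ndufs7, Ndufa9, Ndufs4 and Ndufs6 were among those lower in Gαq described below, and Ndufc1 and Ndufaf8 were not. Of the members 24 of 46 were lower, and of all genes 9.92%. A link between the word and the change was not tested.

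The NRF1 word was found in 2 of the 34 subunit promoters (5.88%, Ndufa8 and Ndufa11), in 2 of the 7 assembly factor promoters (28.6%, Ndufaf4 and Ndufaf5) and in 1.75% of all promoters. The word is nearly its own reverse complement, so that its matches on both strands overlap. The ETS word was found in 4 of 34 subunit promoters (11.8%, Ndufb6, Ndufb7, Ndufs3 and Ndufs8), in 2 of 7 assembly factor promoters (28.6%, Ndufaf1 and Ndufaf8) and in 8.86% of all promoters. The ERR word was found in 0 subunit promoters and 0 assembly factor promoters, against 0.423% of all. An example of each of the 2 words upstream of an assembly factor is given with the word in capitals, for Ndufaf1 because it had the largest difference between genotypes among the assembly factors, and for Ndufaf4 because its groups did not overlap on ERTU.
Ndufaf1, ETS word, chr2:119662835-119662872, minus strand: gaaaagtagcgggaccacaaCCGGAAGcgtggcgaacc
Ndufaf4, NRF1 word, chr4:24897950-24897998, plus strand: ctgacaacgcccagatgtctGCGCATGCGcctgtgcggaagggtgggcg
Neither stretch overlapped an annotated exon. A match of letters in a promoter is a description of the sequence and does not show that a factor binds there.

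Between genes, transcript levels were compared per kb of exon, as read pairs scaled to library size (CPM) per kb, averaged over the 18 libraries. Subunits had a median of 193.5 CPM per kb (range 3.00 to 535) and assembly factors a median of 14.4 CPM per kb (range 6.88 to 33.5). Per kb of the longest transcript, in place of all exons, the medians were 288 and 17.03 CPM per kb. Per kb of all exons, Ndufa4 stood highest at 568 CPM per kb, and Ndufa1, a small membrane arm subunit, and Ndufb9 of the distal arm also stood high, at 535 and 468. Per kb of the longest transcript Ndufb9 came first at 686, before Ndufa4 at 637, and Ndufa1 was at 535. The highest assembly factor, Ndufaf8, stood at 33.5 CPM per kb of all exons. Only 4 subunits lay at or below it, Ndufb2 at 17.8, Ndufab1 at 11.7, Ndufb4 at 6.47 and Ndufs5 at 3.00 CPM per kb. The annotated exons of Ndufb2 and Ndufab1 cover 5628 and 6883 bases. Without division by length these 2 genes stood at 100.1 and 80.6 CPM, above the highest assembly factor, Ndufaf4, at 60.25 CPM. Ndufab1, Ndufb4 and Ndufs5 share stretches with near-identical copies elsewhere in the genome, described below, so that the levels of these 3 genes are uncertain.

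**Figure D1:**
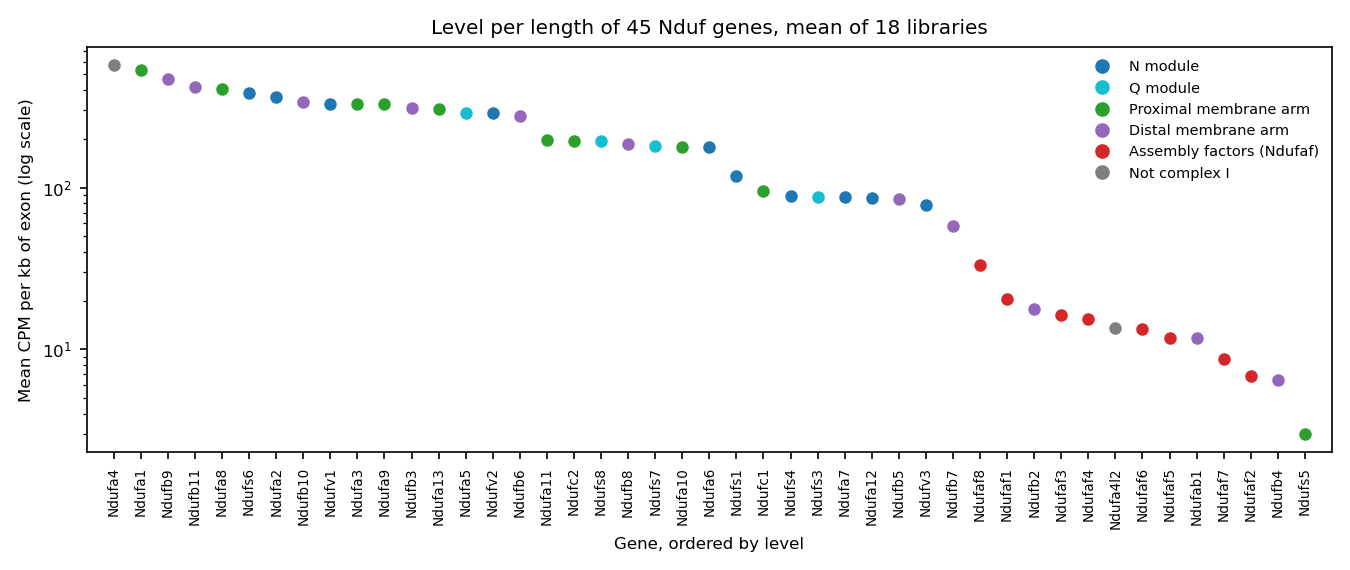
Level of 45 of the genes in CPM per kb of exon (log axis), by class, as the mean over 18 libraries. Subunits had a median of 193.5 and assembly factors of 14.4 CPM per kb, with 4 subunits at or below the highest assembly factor.

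Library totals ran from 15383566 to 20908363 read pairs. Gnaq stood at 45.5 to 230 CPM in WT libraries and at 1641 to 11670 CPM in Gαq libraries, so that each library matched its labelled genotype. No gene checked the labelled diet. Library 5 of WT CD and library 16 of Gαq ERTU stood apart for the genes described here. Library 5 was the lowest of its group for 36 of 36 subunits and 7 of 8 assembly factors, against 29.3% of all genes. Library 16 was the highest of its group for 35 of 36 subunits and 6 of 8 assembly factors, against 32.1% of all genes, and library 17 was the lowest for 24 of 36 and 6 of 8, against 31.9%. Marker genes of cell types were read from the genotype comparison described below, in which 9.92% of all genes were lower and 9.72% higher in Gαq. Of the cardiac muscle markers, 4 of 10 were lower (median log2 fold change -0.16), with a summed level of 78970 to 102100 CPM in Gαq and 83900 to 115500 CPM in WT libraries. Of the fibroblast markers, 6 of 8 were higher in Gαq (median 0.66), with sums of 2826 to 4280 CPM against 1471 to 3076 CPM. Of the other lists, 2 of 8 endothelial (median -0.23) and 1 of 5 smooth muscle markers were lower, 1 of 5 lymphocyte markers was higher, 2 of 5 skeletal muscle markers were higher and 1 lower, and none of 7 macrophage, 4 atrial, 5 fat and 4 red blood cell markers was called. The lowest cardiac muscle sum and the highest fibroblast sum among WT libraries were both in library 5. Atrial sums varied widely between libraries, from 16.6 to 724 CPM. Library 5 had the highest atrial sum of WT CD (242 CPM) and library 14 that of WT ERTU (267 CPM). In Gαq the highest were library 8 on CD (724 CPM) and library 20 on ERTU (502 CPM). No marker was at 0 in all libraries. The part of these shifts in the differences given below was not tested, and fewer cardiomyocytes cannot be told apart from less RNA per cardiomyocyte in bulk tissue.

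The comparison of genotypes asked how the nuclear complex I genes changed with Gαq overexpression. Transcripts of complex I were lower in Gαq hearts, and the fall covered every nuclear core subunit of the enzyme and some of its accessory subunits and assembly factors. With diet in the model, 24 of 46 members were lower in Gαq at an adjusted p under 0.05 (edgeR quasi-likelihood test, adjusted over all 16270 genes tested) and 0 were higher. Of all genes, 19.6% were called, 9.92% lower and 9.72% higher. The median log2 fold change of the 46 genes was -0.25, against 0.004 for all genes, and 42 of 46 values were below 0, against 49.4% of all genes. When libraries were left out 1 at a time, 19 of the 24 calls were made in all 18 fits. Ndufc2 was called in 17, Ndufb9 in 15, Ndufa4 in 8, Ndufs6 in 7 and Ndufs5 in 6 of those 18 fits. Among subunits 20 of 36 were lower, with log2 fold changes from -0.54 to 0.04 and a median of -0.25. All 7 core subunits were lower (median -0.35, range -0.54 to -0.31), as were 13 of 29 accessory subunits (median -0.22). By position, 6 of 10 N module subunits, 4 of 5 Q module subunits, 4 of 10 in the proximal arm and 6 of 11 in the distal arm passed the test, with medians of -0.25, -0.34, -0.22 and -0.25. Among assembly factors 3 of 8 were lower, with a median of -0.19.

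**Figure D2:**
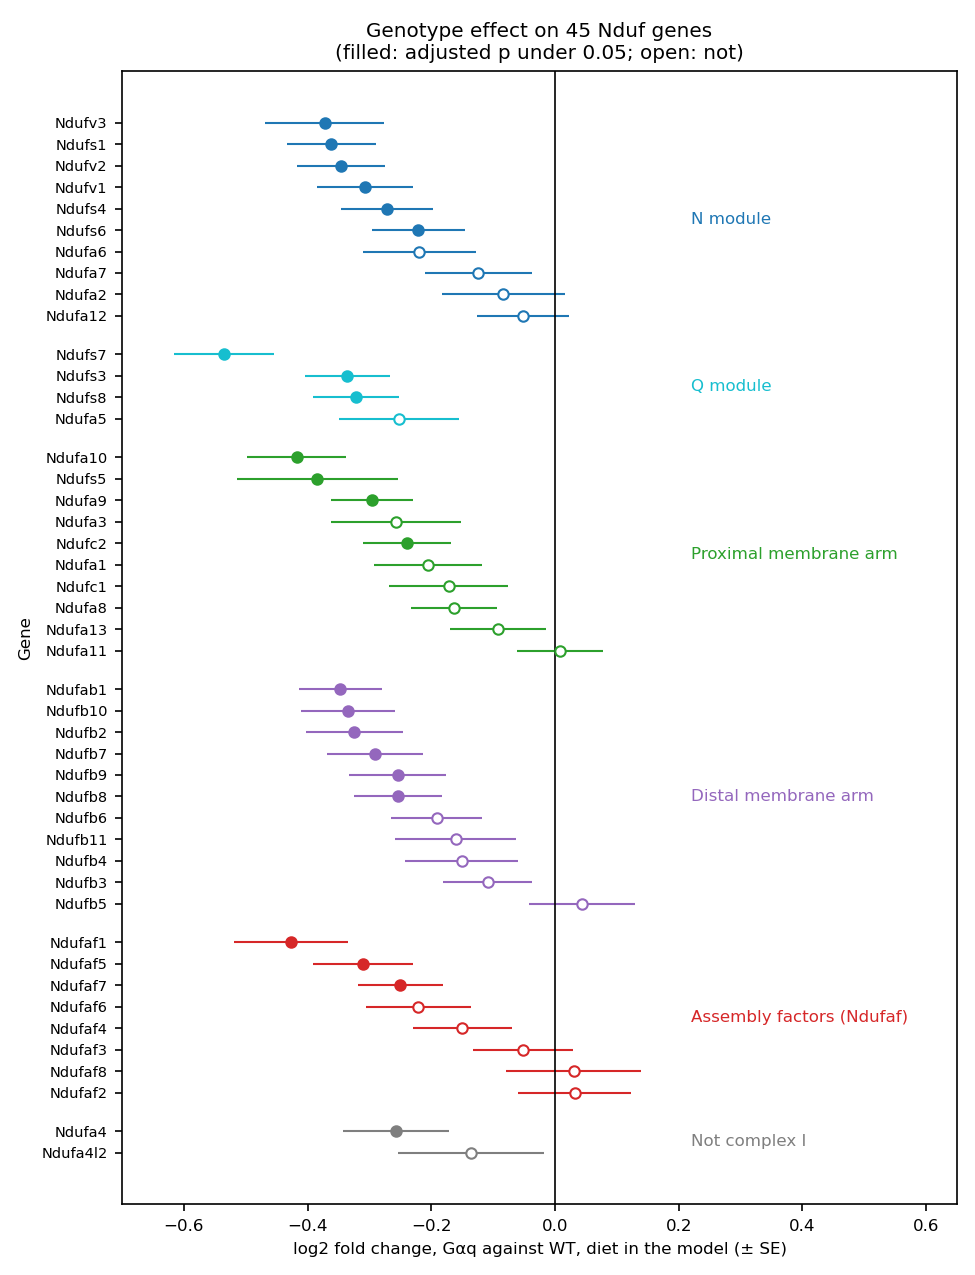
Log2 fold change (Gαq over WT, diet in the model) of 45 of the genes by class, with its standard error; filled points have an adjusted p under 0.05. The core subunits drawn lie between -0.54 and -0.31, while Ndufb5, Ndufa11, Ndufaf2 and Ndufaf8 lie at or just above 0.

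The Q module is where ubiquinone is reduced, and it held Ndufs7, the member with the smallest p. Ndufs7 (ENSMUSG00000020153, chromosome 10, 80249121 to 80256794, GRCm38, plus strand) encodes the subunit that carries the last iron-sulfur cluster before ubiquinone. Its levels were 392, 385, 358.5 and 298 CPM in WT CD, 435, 378, 397, 326 and 366 CPM in WT ERTU, 286, 224, 236, 250 and 257 CPM in Gαq CD, and 319, 215, 255 and 247 CPM in Gαq ERTU. Every Gαq CD library lay below every WT CD library, and on ERTU every Gαq library lay below every WT library. The log2 fold change by genotype was -0.54 ± 0.0814 (SE, adjusted p = 6.489e-05, edgeR), or 0.690 of the WT level. Ndufs3 and Ndufs8, core subunits of the same module, changed by -0.34 and -0.32, and the accessory subunit Ndufa5 stood at -0.25 without passing the test (adjusted p = 0.0743).

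The N module binds NADH and the flavin. Ndufs1 (ENSMUSG00000025968, chromosome 1, 63143596 to 63176833, minus strand), its largest subunit and the carrier of several iron-sulfur clusters, stood at 971, 1234, 1008 and 900.1 CPM in WT CD, 1024, 1131, 1039, 1131 and 1197 CPM in WT ERTU, 955, 803, 854, 774 and 776 CPM in Gαq CD, and 813, 922, 808 and 762 CPM in Gαq ERTU. On CD library 6 of Gαq lay above library 5 of WT, whereas on ERTU the groups did not overlap. Its log2 fold change was -0.36 ± 0.0724 (SE, adjusted p = 0.00108, edgeR). Ndufv2 (ENSMUSG00000024099, chromosome 17, 66078638 to 66101559, minus strand), another iron-sulfur subunit, stood at 733, 654, 724 and 530.3 CPM in WT CD, 718, 698, 734, 787 and 647 CPM in WT ERTU, 539, 532, 558, 472 and 561 CPM in Gαq CD, and 604, 495, 564 and 538 CPM in Gαq ERTU. Library 5 was below 4 of the 5 Gαq CD libraries, the other 3 WT CD libraries were above all of them, and on ERTU the groups did not overlap. By genotype it changed by -0.35 ± 0.0706 (SE, adjusted p = 0.001283, edgeR). Ndufv1, which binds NADH and the flavin, changed by -0.31 and the accessory Ndufv3 by -0.37. Ndufs4, an accessory subunit whose loss causes Leigh syndrome, changed by -0.27 ± 0.0739 (SE, adjusted p = 0.01184, edgeR) and Ndufs6 by -0.22. Ndufa6, Ndufa7, Ndufa2 and Ndufa12 did not pass the test, with log2 fold changes of -0.22, -0.12, -0.08 and -0.05.

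In the proximal part of the membrane arm, Ndufa10 and Ndufa9 had the smallest p. Ndufa10 (ENSMUSG00000026260, chromosome 1, 92439010 to 92473860, minus strand) encodes an accessory subunit of nucleoside kinase fold, and its levels were 689.8, 758, 666 and 547.5 CPM in WT CD, 755, 745, 739, 542 and 705 CPM in WT ERTU, 579.7, 444, 473, 519.5 and 504 CPM in Gαq CD, and 573.5, 531, 493 and 464.5 CPM in Gαq ERTU. Apart from library 5 of WT CD and library 14 of WT ERTU, each WT library lay above every Gαq library on the same diet. Its change by genotype was -0.42 ± 0.0806 (SE, adjusted p = 0.0007582, edgeR). Ndufa9, an accessory subunit at the junction of the arms, stood at 753, 816, 765 and 577 CPM in WT CD, 759, 813, 818, 758 and 777 CPM in WT ERTU, 647, 556, 635, 546 and 592 CPM in Gαq CD, and 674.5, 642, 615 and 615 CPM in Gαq ERTU. Library 5 lay within the range of the Gαq CD libraries, and on ERTU the groups did not overlap. It changed by -0.30 ± 0.0664 on the log2 scale (SE, adjusted p = 0.002795, edgeR). Ndufc2 and Ndufs5 also passed the test, at -0.24 and -0.38, and the other 6 proximal subunits ranged from -0.26 (Ndufa3) to 0.01 (Ndufa11).

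In the distal part, Ndufab1, the mitochondrial acyl carrier protein, had levels of 95.8, 85.9, 96.5 and 73.7 CPM in WT CD, 103, 93.1, 98.2, 78.7 and 89.3 CPM in WT ERTU, 72.4, 67.75, 63.4, 65.9 and 70.5 CPM in Gαq CD, and 84.7, 68.5, 71 and 71.8 CPM in Gαq ERTU. The groups did not overlap on CD, and on ERTU library 16 of Gαq lay above library 14 of WT. The log2 fold change was -0.35 ± 0.0674 (SE, adjusted p = 0.0008038, edgeR). Ndufb10, an accessory subunit of the distal arm, stood at 492, 437, 504.5 and 369 CPM in WT CD, 516.5, 472.5, 508, 398 and 465 CPM in WT ERTU, 382, 319, 347, 355 and 373 CPM in Gαq CD, and 444, 345, 375 and 343 CPM in Gαq ERTU. Library 5 of WT CD lay within the Gαq CD range and library 16 of Gαq ERTU above library 14 of WT ERTU. On the log2 scale it changed by -0.33 ± 0.0755 (SE, adjusted p = 0.002959, edgeR). The other 4 distal subunits that passed the test were Ndufb2 (-0.32), Ndufb7 (-0.29), Ndufb8 (-0.25) and Ndufb9 (-0.25). Ndufb6, Ndufb11, Ndufb4 and Ndufb3 ranged from -0.19 to -0.11 without passing it, and Ndufb5 stood at 0.04.

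Of the assembly factors, Ndufaf1, Ndufaf5 and Ndufaf7 were lower in Gαq. Ndufaf1 (ENSMUSG00000027305, chromosome 2, 119655446 to 119662827, minus strand) belongs to the assembly complex that builds the membrane arm. Its levels were 38.9, 36.1, 39.6 and 25.7 CPM in WT CD, 29.6, 36.4, 33.9, 35.4 and 43.1 CPM in WT ERTU, 29.2, 26.4, 25.35, 27 and 23.5 CPM in Gαq CD, and 27.3, 32.1, 23.4 and 22.7 CPM in Gαq ERTU. Library 5 of WT CD lay within the Gαq CD range and library 17 of Gαq ERTU above library 11 of WT ERTU. The log2 fold change was -0.43 ± 0.0917 (SE, adjusted p = 0.001995, edgeR), or 0.744 of the WT level. Ndufaf5 (ENSMUSG00000027384, chromosome 2, 140170649 to 140203689, plus strand), which modifies Ndufs7 by hydroxylating an arginine, stood at 28.8, 21, 24.4 and 21.2 CPM in WT CD, 24.05, 22.6, 22.9, 19.7 and 24 CPM in WT ERTU, 18.3, 19, 19.8, 17.3 and 20.5 CPM in Gαq CD, and 22.1, 14.5, 17.8 and 19.5 CPM in Gαq ERTU. The groups did not overlap on CD, by a narrow margin, and overlapped on ERTU through library 16. Its log2 fold change was -0.31 ± 0.0807 (SE, adjusted p = 0.0087, edgeR). Ndufaf7 (ENSMUSG00000024082, chromosome 17, 78937136 to 78948052, plus strand), a methyltransferase that acts on the complex during its assembly, stood at 35.9, 35.95, 31.7 and 29.7 CPM in WT CD, 35.5, 35.2, 36.15, 27.5 and 33.4 CPM in WT ERTU, 32.2, 24.6, 27, 26.2 and 27.3 CPM in Gαq CD, and 31.1, 29.2, 27.5 and 27.5 CPM in Gαq ERTU. The groups overlapped on both diets, and the log2 fold change was -0.25 ± 0.0681 (SE, adjusted p = 0.01199, edgeR).

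The other 5 assembly factors did not pass the test by genotype. Ndufaf6 had means of 17.2 ± 2.77 CPM in WT CD, 18.3 ± 2.44 in WT ERTU, 14.9 ± 0.758 in Gαq CD and 15.5 ± 2.16 in Gαq ERTU (SD), with a log2 fold change of -0.22 (adjusted p = 0.0744, edgeR). Ndufaf4 stood at 61.6 ± 10.9, 64.5 ± 2.06, 59.9 ± 8.12 and 54.0 ± 2.80 CPM in the same order of groups (SD), with a log2 fold change of -0.15 (adjusted p = 0.205, edgeR). On ERTU all 4 Gαq libraries were below all 5 WT libraries for Ndufaf4, and on CD the groups overlapped. The comparison on ERTU did not pass the test (log2 fold change -0.26, adjusted p = 0.172, edgeR), nor did the interaction (adjusted p = 0.9997, edgeR). Ndufaf3, a partner of Ndufaf4, stood at 29.2 ± 4.70, 30.9 ± 2.69, 29.3 ± 2.86 and 28.7 ± 3.84 CPM (SD) and had a log2 fold change of -0.05. Ndufaf2, a paralogue of the subunit Ndufa12 that takes its place during assembly, stood at 20.9 ± 3.46, 19.8 ± 2.85, 19.8 ± 2.52 and 21.8 ± 1.43 CPM (SD) and had a log2 fold change of 0.03. Ndufaf8, the partner of Ndufaf5, stood at 27.3 ± 3.90, 27.9 ± 5.03, 27.9 ± 4.35 and 28.6 ± 6.42 CPM (SD) with a log2 fold change of 0.03. In each of these 3 genes the group means lay closer together than the largest SD within a group.

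**Figure D3:**
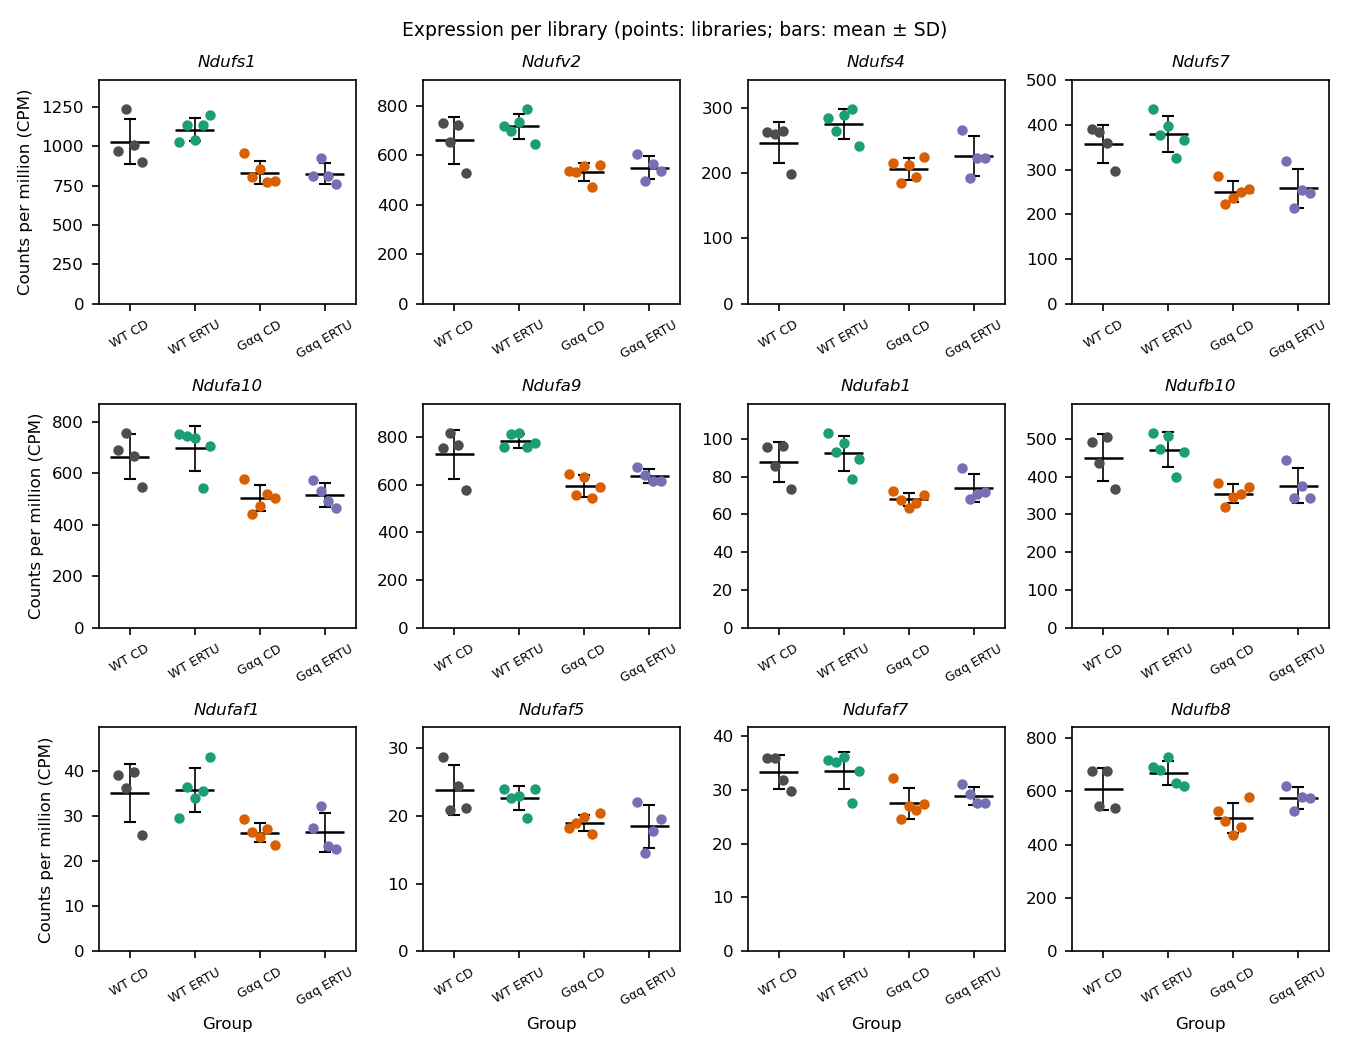
CPM of 12 complex I genes in each of the 18 libraries by group, with mean and SD. Ndufs7 of the Q module did not overlap between genotypes on either diet, whereas Ndufaf7 overlapped on both.

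The genotypes were also compared within each diet, with 1 mean per group in the model. On CD 4 of 46 members were lower in Gαq and 0 higher, against 8.1% of all genes called, 4.1% lower and 4% higher, with a median log2 fold change of -0.22. All 4 were subunits, Ndufs7, Ndufa10 and Ndufab1 among them. On ERTU 11 were lower and 0 higher, against 8.17% of all genes called, 4.24% lower and 3.93% higher, with a median of -0.25. These were 10 subunits, 6 of the 7 core subunits among them, and Ndufaf1. The interaction did not show a different genotype effect on the 2 diets for any member, with 0 members at an unadjusted p under 0.05 and a smallest adjusted p of 0.9997 (edgeR; DESeq2 and voom also called 0), against 0 genes called of all and 1.92% with an unadjusted p under 0.05. The larger count on ERTU is therefore not a shown difference between diets. The count on CD was 14 without library 5 of WT CD, 8 without library 6 of Gαq CD, 2 without library 2 or 4 of WT CD or 7 or 8 of Gαq CD, and 1 without library 1 of WT CD. The count on ERTU was 2 without library 18 or 20 of Gαq ERTU, 4 without library 13, 5 without library 12, 6 without library 15 of WT ERTU or 17 of Gαq ERTU, and 7 without library 11 of WT ERTU or 1 of WT CD.

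Ndufs7 was called on both diets in every fit without 1 library, with log2 fold changes of -0.52 ± 0.118 on CD (SE, adjusted p = 0.008468, edgeR) and -0.56 ± 0.119 on ERTU (SE, adjusted p = 0.005101, edgeR). Ndufa10 changed by -0.40 on CD (adjusted p = 0.03865, edgeR) and -0.44 on ERTU (adjusted p = 0.02467, edgeR), calls that were lost in 8 and 5 of 18 fits. Ndufab1 changed by -0.37 and -0.32, with calls lost in 3 fits on CD and 13 on ERTU. Ndufs1 stood at -0.30 on CD (adjusted p = 0.07894, edgeR) and changed by -0.42 on ERTU (adjusted p = 0.01474, edgeR), with the latter call lost without library 18 or 20. The call of Ndufaf1 on ERTU was at the threshold (-0.44, adjusted p = 0.04968, edgeR) and was lost in 15 of 18 fits without 1 library, and its value on CD was -0.42 (adjusted p = 0.05947, edgeR). By ranges rather than by test, 4 members had all Gαq libraries below all WT libraries on CD, Ndufs7, Ndufab1 and Ndufaf5 among them, against 4.6% of all genes. On ERTU there were 11 such members, 10 subunits and Ndufaf4, against 5.49% of all genes.

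Subunits and assembly factors were compared by the mean log2 CPM of each class in each library, as a description without a test. The subunit mean was 7.98 ± 0.18 in WT CD, 8.08 ± 0.08 in WT ERTU, 7.75 ± 0.11 in Gαq CD and 7.82 ± 0.16 in Gαq ERTU (SD). The assembly factor mean was 4.85 ± 0.20, 4.87 ± 0.05, 4.69 ± 0.07 and 4.70 ± 0.13 in the same order (SD). Both classes were therefore lower on average in Gαq on both diets, the subunits by 0.23 on CD and 0.26 on ERTU, and the assembly factors by 0.16 and 0.17 on the log2 scale. Without library 5 the differences on CD came to 0.31 for the subunits and 0.25 for the assembly factors. Library 5 was the lowest of WT CD in both classes, so leaving it out widens these differences by construction. It was chosen after the values were seen. Leaving out library 4 of WT CD acted the other way. The median log2 fold change on CD was then -0.19 for subunits and -0.08 for assembly factors, against -0.26 and -0.14 with all libraries. In class means over all libraries, core subunits stood lower by 0.35 on CD and 0.40 on ERTU, and accessory subunits by 0.20 and 0.23. The difference of subunits minus assembly factors within a library was 3.14 ± 0.05 in WT CD (range 3.06 to 3.18), 3.21 ± 0.05 in WT ERTU (3.13 to 3.25), 3.06 ± 0.06 in Gαq CD (3.00 to 3.15) and 3.12 ± 0.04 in Gαq ERTU (3.06 to 3.14). Gαq minus WT, it came to -0.07 on CD and -0.09 on ERTU, and the ranges of the genotypes overlapped on both diets. ERTU minus CD, it came to 0.08 in WT and 0.06 in Gαq, a shift of similar size. With medians over genes in place of means it was 3.39 in WT CD and 3.20 in Gαq CD. On ERTU these medians gave 3.48 in WT and 3.29 in Gαq, so the gap between genotypes was wider than with means. Individual libraries moved both classes together. Library 5 had the lowest mean of its group for subunits (7.73) and for assembly factors (4.57), and library 16 the highest for both (8.02 and 4.87).

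**Figure D4:**
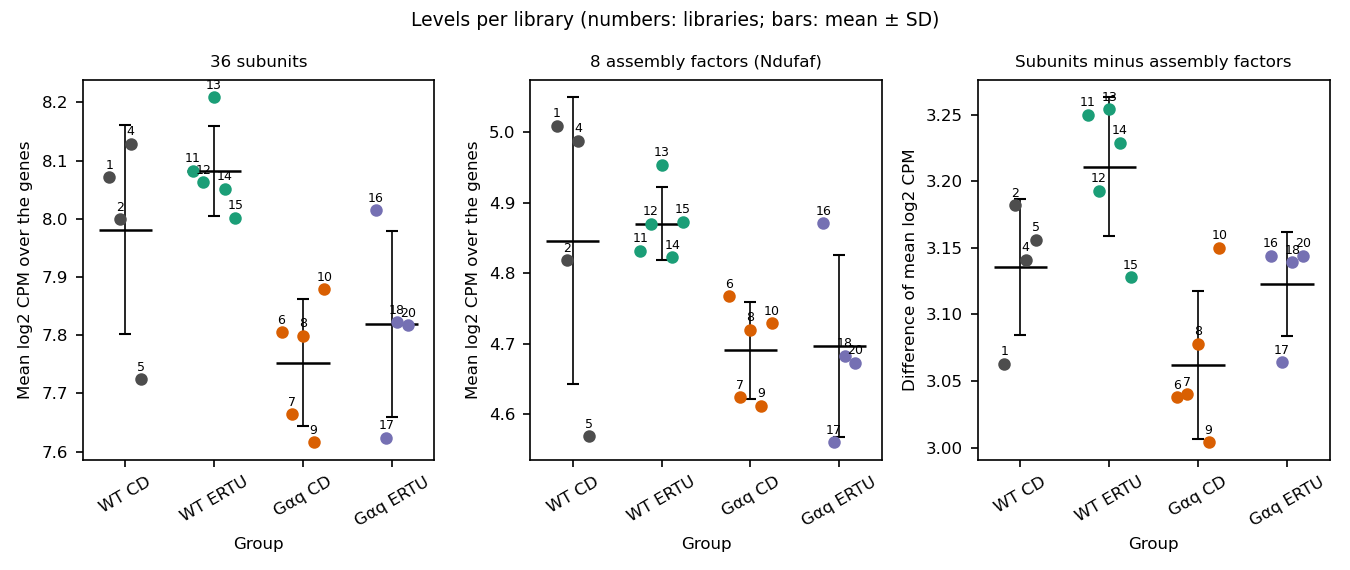
Mean log2 CPM of the 36 subunits and the 8 assembly factors, and their difference, in each library, with mean and SD per group. The difference was 3.14 and 3.06 for WT and Gαq on CD, and 3.21 and 3.12 on ERTU, with overlapping ranges, and library 5 of WT CD is the lowest of its group in both classes.

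The comparison of diets asked whether ERTU changed the same genes. No member passed the test by diet (adjusted over all genes, edgeR), and 0 of all genes did. DESeq2 and voom also called 0 members by diet, in WT and in Gαq, and over all genes DESeq2 called 2 by diet and voom 0. The median log2 fold change was 0.07, and 41 of 46 members were above 0, against 49.5% of all genes. In WT 42 of 46 were above 0 (median 0.08), against 51.5% of all genes, and in Gαq 38 of 46 (median 0.07), against 48.9%. An unadjusted p under 0.05 was reached by 1 member by diet, 0 in WT and 0 in Gαq, against 7.7%, 2.24% and 7.62% of all genes. The genes called were 0 in WT and 0.00615% (1 gene, no member) in Gαq. Ndufb8, a distal arm subunit (ENSMUSG00000025204, chromosome 19, 44548572 to 44555440, minus strand), had the smallest p by diet and stood at 677.5, 545, 675 and 538 CPM in WT CD, 692, 679, 730.5, 630.5 and 619 CPM in WT ERTU, 525, 487, 436, 466 and 580.1 CPM in Gαq CD, and 622, 525, 579 and 575 CPM in Gαq ERTU. The ERTU and CD libraries overlapped in both genotypes, and its log2 fold change by diet was 0.17 ± 0.0712 (SE, adjusted p = 0.6389, edgeR). Ndufs4 (ENSMUSG00000021764, chromosome 13, 114287795 to 114388258, minus strand) came next and stood at 263, 259, 265 and 199 CPM in WT CD, 284, 264, 288, 297.5 and 241 CPM in WT ERTU, 215, 185, 211.5, 194 and 225 CPM in Gαq CD, and 265.5, 192.5, 222 and 223 CPM in Gαq ERTU. Its libraries also overlapped, with a log2 fold change of 0.15 ± 0.0739 (SE, adjusted p = 0.6517, edgeR).

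The size of the small diet values, and the direction of some of them, depended on which libraries were in the fit. Library 5 had the lowest subunit mean of a CD group and library 16 the highest of an ERTU group. Leaving them out therefore lowers ERTU minus CD by construction, and they were chosen after the values were seen. Libraries 4 of WT CD and 17 of Gαq ERTU, which act the other way, were not left out together. Without library 5 of WT CD, 25 of 46 members were above 0 in WT (median 0.0089), and the assembly factors had 1 of 8 above 0. Without library 16 of Gαq ERTU, 21 of 46 were above 0 in Gαq (median -0.0036), with 2 of 8 assembly factors. Without both, the comparison over both genotypes had 22 of 46 above 0 (median -0.0037), 21 of 36 subunits and 0 of 8 assembly factors. Leaving out other libraries moved the median of the subunits the other way, to 0.15 in WT without library 4 of WT CD and to 0.12 in Gαq without library 17 of Gαq ERTU. Over all single libraries left out, it ran from 0.01 to 0.15 in WT and from 0.0029 to 0.12 in Gαq. By genotype the same median stayed between -0.30 and -0.22. The comparisons in WT and in Gαq have no library in common, but each shares its libraries with the comparison over both genotypes.

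**Figure D5:**
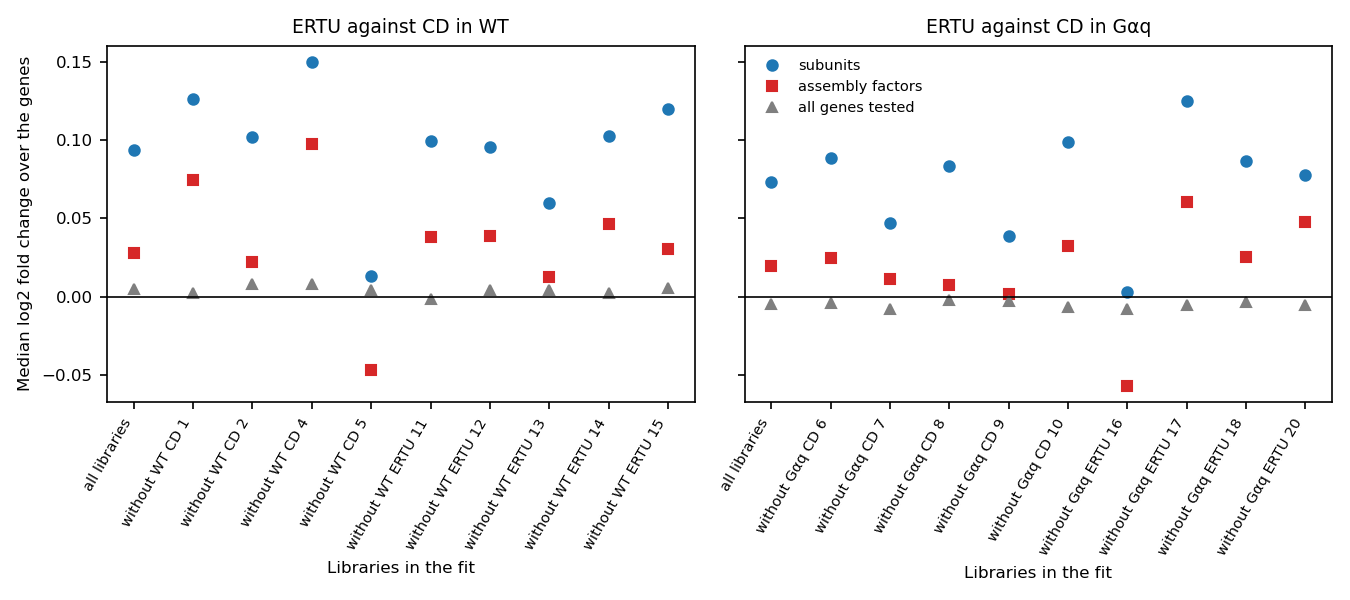
Median log2 fold change (ERTU over CD) of subunits, assembly factors and all genes, in WT and in Gαq, with all libraries and with each library left out in turn. The subunit median was 0.09 in WT and 0.01 without library 5 of WT CD, and 0.07 in Gαq and 0.0029 without library 16 of Gαq ERTU.

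Several members have near-identical copies or neighbours that could take or share their reads. The share of 50-base words of the longest coding transcript that a copy also holds was used as a measure. Words were matched on both strands, whereas pairs were counted on the same strand. A match with a gene on the opposite strand, such as 1700018A23Rik, annotated as antisense, therefore need not mean shared reads. Ndufs5 (2.58 CPM) shared 31.1% of its words with BC002163, which stood at 136 CPM and was itself lower in Gαq (log2 fold change -0.23, adjusted p = 0.038, edgeR). Ndufab1 (80.6 CPM) shared 10.8% with Gm4459, a processed pseudogene at 139 CPM, and 9.07% with Ndufab1-ps at 17.2 CPM, and both were lower in Gαq (-0.35 and -0.37). Ndufs3 shared 35.5% with Gm12251, which stood at 73.4 CPM and was lower in Gαq (log2 fold change -0.39). Ndufa12 shared 26.2% with Gm15920, at 148 CPM above the 135 CPM of Ndufa12, and neither passed the test. Ndufb4 (12.4 CPM) shared 37.0% with Ndufb4c at 6.19 CPM, and Ndufs6 shared 8.33% with Ndufs6b at 12.8 CPM. The authors counted uniquely aligned pairs, so that reads from these stretches could have been lost or assigned to a copy, and the values of these 6 members are uncertain for that reason. Words were shared with protein-coding genes or noncoding RNAs too. Among the genes given per library these were Ndufs1 (5.93% of words, Ino80dos), Ndufb8 (4.06%, Gm20538), Ndufaf7 (2.82%, many genes) and Ndufa9 (1.43%, 1700018A23Rik). Elsewhere they included Ndufb6 (34.1%, Smim27), Ndufa13 (28.5%, Tssk6 and a pseudogene), Ndufb9 (23.4%, Gm49356), Ndufb11 (17.5%, Rbm10 and a pseudogene) and Ndufb5 (16.2%, Mrpl47), with smaller shares in Ndufa11, Ndufb2, Ndufc1 and Ndufa2 and a share with Kbtbd4 in Ndufs3. The Nduf symbols left out as not protein-coding were Ndufa11b, Ndufb4c, Ndufs6b and Ndufab1-ps, which are processed pseudogenes, and Ndufb1-ps, annotated as a long noncoding RNA with a mean count of 2195.

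Assembly factors without the Nduf name were read from a list of 14 genes, 13 of which were tested. Of these, 6 were lower in Gαq and 0 higher, against 9.92% and 9.72% of all genes, with a median log2 fold change of -0.19. Tmem70, which helps to assemble complex I and ATP synthase, changed by -0.49 (adjusted p = 6.852e-05, edgeR). Aifm1, a flavoprotein needed for the import of respiratory chain subunits, changed by -0.45 (adjusted p = 6.683e-05, edgeR), and Foxred1, a flavoprotein of complex I assembly, by -0.45 (adjusted p = 0.0001619, edgeR). Ecsit and Tmem186, members of the same assembly complex as Ndufaf1, changed by -0.42 and -0.33, and Dmac2 by -0.29. Tmem126b, of that complex too, stood at 0.18 (adjusted p = 0.131, edgeR) and Lyrm2 at 0.19 (adjusted p = 0.0705, edgeR). Of 10 regulators of mitochondrial genes, 3 were lower and 0 higher in Gαq (median -0.20), against 9.92% and 9.72% of all genes. They were Tfam, which packages and transcribes mitochondrial DNA (-0.33, adjusted p = 0.0008091, edgeR), the nuclear receptor Esrra (-0.25, adjusted p = 0.00476, edgeR) and the coactivator Ppargc1a (-0.37, adjusted p = 0.02606, edgeR).

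Beside complex I, nuclear subunits of complexes II to V gave 20 of 38 genes lower and 0 higher in Gαq, with a median of -0.27, against 9.92% and 9.72% of all genes. The counts were 4 of 4 for complex II (median -0.46), 6 of 9 for complex III (-0.32), 4 of 10 for complex IV (-0.18) and 6 of 15 for complex V (-0.16), beside 20 of 36 for complex I (-0.25). No test of a difference between complexes was made, and nothing particular to complex I is read from these counts. Ndufa4 (ENSMUSG00000029632, chromosome 6, 11900292 to 11907497, minus strand), the complex IV subunit among the members, stood at 825, 813, 867 and 742 CPM in WT CD, 811, 815, 988, 1021 and 841 CPM in WT ERTU, 682, 689.9, 789, 563 and 729 CPM in Gαq CD, and 836.5, 549, 758 and 803 CPM in Gαq ERTU. The genotypes overlapped on ERTU and, through library 8, on CD, with a log2 fold change of -0.26 ± 0.0858 (SE, adjusted p = 0.03861, edgeR). Ndufa4l2, the paralogue known for its induction by hypoxia, stood at 16.8, 16.1, 16 and 15.8 CPM in WT CD, 17, 13.2, 18.8, 15 and 10.7 CPM in WT ERTU, 12.85, 14.1, 10.8, 17.9 and 15.5 CPM in Gαq CD, and 18.2, 10.1, 15.1 and 13.1 CPM in Gαq ERTU. Its libraries overlapped in every comparison, and its log2 fold change was -0.14 ± 0.118 (SE, adjusted p = 0.4701, edgeR).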

How the data were processed

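RNA of left ventricle from 18 mice was sequenced as poly(A)-selected, paired-end libraries. The authors aligned the reads to mouse build mm10 with STAR 2.6.0c and deposited raw counts of uniquely aligned proper pairs on the same strand per Ensembl gene, made with featureCounts of Subread 1.6.2 for nuclear-encoded genes only. Values on a log2 scale, also deposited by the authors, were used only for an alternative fit with limma. They came from the variance-stabilizing transformation of DESeq2. Per the submitters' processing notes that DESeq2 was version 1.23.10. Of the gene IDs, 55190 matched GENCODE M21 of build GRCm38, which gave symbols and positions and is not the authors' annotation.

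Counts were tested in R 4.3.3 with edgeR 4.0.16 (TMM scaling, filterByExpr on the 4 groups, quasi-likelihood F tests). This kept 16270 genes, and those left out held 0.0906% of counts. Genotype and diet came from a model with both factors, and the 4 pairwise comparisons and the interaction from a 4-group model. Adjustment was by Benjamini-Hochberg across the 16270 genes, and the threshold was 0.05. The standard error of a log2 fold change is its size divided by the square root of F. CPM uses TMM factors, and log2 CPM a prior count of 2. The column names give a group and a number that could not be tied to the labels' replicate numbers. Nothing says more than that libraries of a group were separate hearts. No library was left out, and intervals from counting error were not used because the spread between libraries was measured.

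The members, lists and rules were chosen with earlier results of these data known. The genes given in every library are the 2 members of smallest p by genotype in each of the N module, Q module, proximal arm and distal arm, each Ndufaf gene past the threshold, the 2 members of smallest p by diet, Ndufa4 and Ndufa4l2. An item that falls under this rule is not reported here, though it stayed in every fit, count and median. Atp5s and Tmem261 were taken off the list of other assembly factors after values were seen, since the first is not a complex I assembly factor and the second is an older name. No call changed. Alternatives tried were size factors by median of ratios, no filter on low counts and a mean CPM of at least 1. Other tests were DESeq2 1.42.0, limma 3.58.1 voom with sample weights, and limma on the deposited log2-scale values. Fits of the 2 groups compared only, medians in place of means, and fits without 1 library were also tried. So was a model with 1 mean per group for genotype and diet. Fits without WT CD library 5 and Gαq ERTU library 16 together were added after the data were seen. Of the steps, only the edgeR test by genotype was tried on simulated counts with known genotype changes. Those counts held no shift shared by the genes of a library. The pairwise comparisons, the interaction, the class means and the sequence steps were not simulated.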

Additional observations from a re-analysis of the deposited data

Results flagged for a closer look

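Within groups of 4 or 5 libraries, the gap between the most extreme library and its nearest neighbour was divided by the range of the group and compared with Dixon's critical value, 0.829 for 4 and 0.71 for 5 libraries. Over 104 groups of values 7 passed, against 5.2 by chance at 1 in 20, so that the count was near chance. The groups of values share libraries and genes and are not independent. In WT CD, library 5 was far below the others for Ndufs4 (ratio 0.9288, log2 CPM of 7.636 against 8.02 to 8.049), for the mean of the Q module (0.8701, 8.284 against 8.599 to 8.647) and for the mean of the other assembly factors (0.9932, 5.326 against 5.598 to 5.6). In WT ERTU, library 14 was far below for Ndufa10 (0.7936, 9.083 against 9.462 to 9.56) and Ndufaf7 (0.7134, 4.789 against 5.068 to 5.18), and library 13 was far above for the mean of the proximal arm (0.8223, 7.833 against 7.624 to 7.661). In Gαq ERTU, library 17 was far below for subunits minus assembly factors (0.9389, 3.064 against 3.139 to 3.144).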

How the results depend on the processing

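No paired analysis was possible because the tables' library numbers could not be tied to the labels' replicate numbers, so the planned fits with a replicate block were not run. By genotype the number of Nduf genes (Ndufa4 and Ndufa4l2 included) lower in Gαq was 19 to 28 without 1 library and 0 were higher in any setting. On CD the number lower in Gαq was 4, and 1 with no filter on low counts, 13 with DESeq2, 17 with voom, 2 with only the 2 groups compared, 15 without WT CD library 5 and Gαq ERTU library 16, and 1 to 14 without 1 library. On ERTU it was 11, and 4 with no filter, 19 with voom, 7 with only the 2 groups, and 2 to 12 without 1 library. Over all genes, the Gαq on ERTU comparison called 1330 genes and 2755 with voom, and the Gαq on CD comparison 1318, and 788 to 1414 without 1 library. ERTU in Gαq called 1 gene, 0 with no filter, with only the 2 groups or without both libraries, 5 with DESeq2 and 0 to 0 without 1 library, and diet called 0 genes and 2 with DESeq2. With medians over genes in place of means, subunits minus assembly factors were 3.39 in WT CD, 3.48 in WT ERTU, 3.20 in Gαq CD and 3.29 in Gαq ERTU. Values by diet, none of them called, turned negative without both libraries for Ndufs7 (-0.031), Ndufa10 (-0.0185), Ndufb10 (-0.0104), Ndufaf1 (-0.0558) and Ndufaf7 (-0.0048). Ndufaf1 by diet also did so with voom (-0.0561), without WT CD library 5 (-0.043), Gαq CD 10 (-0.0026), WT ERTU 15 (-0.0226) or Gαq ERTU 17 (-0.0338), and ran from -0.043 to 0.0467 without 1 library. Ndufa4l2 in Gαq on ERTU, uncalled, turned positive without WT ERTU 13 (0.0138) or Gαq ERTU 17 (0.0453), and ran from -0.226 to 0.0453. Apart from what the alternatives' own construction shows (fewer libraries, other genes tested), the cause was not tested.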
